A study of Mus musculus with 8 samples.

Results

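The cells described here are Spp1 Gpnmb macrophages of the mouse posterior eye, 304 of 11223 immune cells. They were chosen by measured RNA counts: at least 2 unique molecular identifiers (UMIs, counted RNA molecules) of Spp1, at least 2 of the 5 genes Gpnmb, Acp5, Atp6v0d2, Apoc2 and Syngr1 detected, fewer than 2 of the 3 microglia genes Tmem119, P2ry12 and Sall1 detected, and no UMI of Lyve1, Cd3e, Cd79a or Rpe65. The cells came from 4 pooled groups of female mice aged 10 to 12 weeks. Nr4a1-/- laser eyes and WT laser eyes received 8 laser burns each, which break the membrane under the retina and provoke choroidal neovascularization (CNV), and were taken on day 3 from 11 to 12 mice per group. Nr4a1-/- control eyes and WT control eyes came from 22 mice per group without burns. Live CD45+ cells were sorted from the pooled posterior eye cups, and each group is 1 library in which RNA was counted together with ADT, the DNA tags of antibodies that bind surface proteins. The Nr4a1-/- mice lack the nuclear receptor Nr4a1 in every tissue, so no cell type is targeted, and the labels call the strain of every group C57BL/6J whereas the methods name the Nr4a1-/- mice B6;129S2-Nr4a1tm1Jmi/J, so strain background and genotype cannot be told apart. With 1 library per group there is no spread between animals, no p-value is given, and every interval covers counting error only.

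Macrophages that take up dying cells and lipid can enter a state in which Spp1 and Gpnmb are abundant. Spp1 encodes osteopontin, a secreted matrix protein that binds integrins and CD44. Gpnmb encodes a transmembrane glycoprotein of lysosomes and the cell surface. Acp5 (tartrate-resistant acid phosphatase) and Atp6v0d2 (a subunit of the vacuolar proton pump) are best known from osteoclasts, Apoc2 is an apolipoprotein that activates lipoprotein lipase, and Syngr1 is a vesicle membrane protein. Cells of this kind are known from atheroma, obese fat, fibrotic lung and liver, tumors and the injured nervous system, and the transcription factors TFEB, TFE3 and MITF, which bind TCACGTG and TCATGTG, are known to drive many lysosomal genes and Gpnmb itself. In the eye, macrophages that gather at laser burns are known as a source of the vessel growth factor Vegfa.

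The genes that choose the cells lie, in GRCm38, at chr5:104435118-104441050 on the plus strand (Spp1), chr6:49036546-49070929 on the plus strand (Gpnmb), chr9:22126727-22135711 on the minus strand (Acp5) and chr4:19876841-19922605 on the minus strand (Atp6v0d2). The start regions of 2 genes of the rule and 2 genes outside it are shown because they hold motifs counted further on. Each is the RefSeq promoter on GRCm38.p6 from 250 bases before to 50 bases after a start of transcription, written along its gene. Spp1 (chr5:104434861-104435160, plus strand) has GAGGAAGT, the site of the macrophage factor PU.1, at position -113. Gpnmb (chr6:49036268-49036567, plus strand) has TGACTCA, the site of AP-1 factors, at position 8. Ctsd (chr7:142387778-142388077, minus strand), which encodes the lysosomal protease cathepsin D, has TCACGTG at positions -99 and -98 on opposite strands and at -245 on the reverse strand. Plin2 (chr4:86670010-86670309, minus strand), which encodes the coat protein of lipid droplets and was picked after its values were seen, has TCACGTG at -5. The motif letters are in capitals.
Spp1: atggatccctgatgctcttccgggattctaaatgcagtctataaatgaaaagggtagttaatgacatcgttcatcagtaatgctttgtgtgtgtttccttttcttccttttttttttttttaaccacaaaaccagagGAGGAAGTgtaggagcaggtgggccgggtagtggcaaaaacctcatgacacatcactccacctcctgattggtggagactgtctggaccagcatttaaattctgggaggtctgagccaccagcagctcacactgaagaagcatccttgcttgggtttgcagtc
Gpnmb: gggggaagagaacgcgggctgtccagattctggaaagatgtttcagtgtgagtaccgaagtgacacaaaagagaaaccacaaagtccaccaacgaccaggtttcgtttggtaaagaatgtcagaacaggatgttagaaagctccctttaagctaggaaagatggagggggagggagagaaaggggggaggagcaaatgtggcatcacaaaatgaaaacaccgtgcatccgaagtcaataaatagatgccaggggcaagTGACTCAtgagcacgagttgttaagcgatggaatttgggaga
Ctsd: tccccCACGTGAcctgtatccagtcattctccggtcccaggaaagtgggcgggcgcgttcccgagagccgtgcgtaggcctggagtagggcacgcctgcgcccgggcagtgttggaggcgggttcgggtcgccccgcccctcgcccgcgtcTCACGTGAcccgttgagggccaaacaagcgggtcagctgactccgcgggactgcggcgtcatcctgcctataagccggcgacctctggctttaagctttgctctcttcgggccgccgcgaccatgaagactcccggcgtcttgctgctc
Plin2: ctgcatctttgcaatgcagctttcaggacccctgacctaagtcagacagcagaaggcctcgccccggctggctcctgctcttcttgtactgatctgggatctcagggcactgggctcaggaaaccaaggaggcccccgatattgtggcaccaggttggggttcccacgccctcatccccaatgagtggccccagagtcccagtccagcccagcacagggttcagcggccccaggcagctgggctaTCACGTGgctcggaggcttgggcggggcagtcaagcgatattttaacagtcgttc

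The libraries differed in depth. The files held 1675 barcodes with 7848548 RNA UMIs in Nr4a1-/- laser, 4008 with 38052948 in WT laser, 2078 with 13577173 in Nr4a1-/- control, and 3863 with 24822857 in WT control, of which 1649, 3791, 2020 and 3763 barcodes had 200 to 5000 genes detected with no more than 15% of UMIs from mitochondrial genes. The Nr4a1-/- control library carries a library number of another series than the other 3, so that library and its condition cannot be told apart. Pairs of libraries shared 1 to 7 cell barcodes, 18 in all, and no shared barcode was a Spp1 Gpnmb macrophage. The targeted gene went with the labels. Nr4a1 stood at 22.9 and 201 CPM (UMIs of the gene per 1000000 UMIs of that class in that library) in the Spp1 Gpnmb macrophages of Nr4a1-/- laser and WT laser, and at 44.9 and 288 CPM in those of Nr4a1-/- control and WT control. These are 3' tags, and which part of the gene the allele removes is not given in the sources used here, so they do not measure the loss of the protein.

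Spp1 Gpnmb macrophages were found after laser in both genotypes and were rare without it. They were 89 of 1649 cells in Nr4a1-/- laser (5.40%, exact Clopper-Pearson 95% interval 4.36 to 6.60%), 197 of 3791 in WT laser (5.20%, 4.51 to 5.95%), 5 of 2020 in Nr4a1-/- control (0.248%, 0.0804 to 0.577%) and 13 of 3763 in WT control (0.346%, 0.184 to 0.590%). The share in laser over control was 21.8 (9.0 to 68.8) in Nr4a1-/- and 15 (8.60 to 28.8) in WT. The share in Nr4a1-/- laser over WT laser was 1.04 (0.799 to 1.34). Counted among macrophages and microglia alone, they made up 17.0% in Nr4a1-/- laser and 16.4% in WT laser, against 1.09% in Nr4a1-/- control and 1.70% in WT control.

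The comparison of genotypes moved with the depth at which the rule was applied. Nr4a1-/- laser cells were shallower, with a median of 4652 UMIs in other macrophages against 9813 UMIs in WT laser. After each cell was thinned to 2000 UMIs, 69 of 1230 Nr4a1-/- laser cells (5.61%) and 98 of 3545 WT laser cells (2.76%) met the rule, a ratio of 2.03 (1.47 to 2.79). The cells left out as shallower than 2000 UMIs numbered 419 (Nr4a1-/- laser), 246 (WT laser), 135 (Nr4a1-/- control) and 396 (WT control). With 50 or more Spp1 UMIs required, a limit added after the data were seen, the shares were 3.34% in Nr4a1-/- laser and 2.01% in WT laser, a ratio of 1.66 (1.15 to 2.39). Thinned control shares were 0.159% in Nr4a1-/- and 0.238% in WT, so the laser libraries stayed above the controls in each setting.

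**Figure D1:**
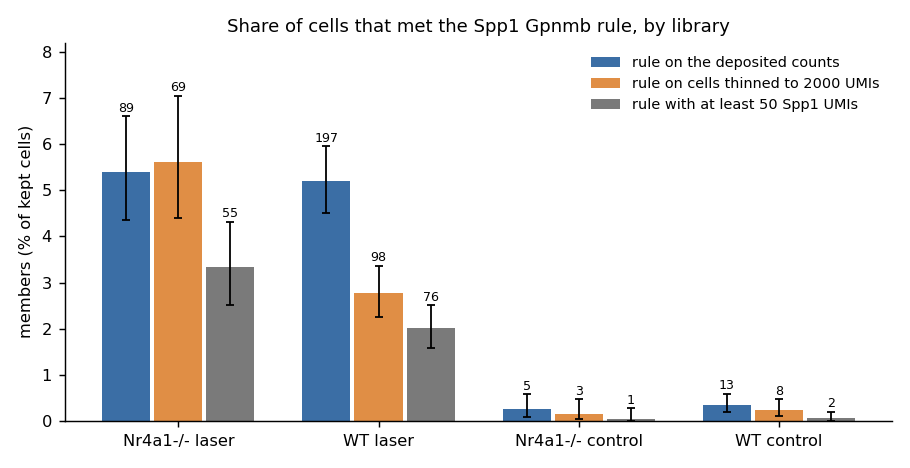
Share of kept cells (percent of cells, bars) that met the rule in each library, on the deposited counts, after thinning each cell to 2000 UMIs, and with at least 50 Spp1 UMIs. Error bars are exact 95% intervals for counting error, and the numbers above the bars are members, the cells that met the rule. The laser libraries stood at 5.40% (Nr4a1-/-) and 5.20% (WT) and the controls at 0.248% and 0.346% on the deposited counts, and thinning gave 2.76% in WT laser.

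Spp1 itself varied widely among the chosen cells, here as a description since it chose them. The lowest, median and highest Spp1 UMI counts per cell were 2, 82 and 1134 in Nr4a1-/- laser, 2, 21 and 2034 in WT laser, 2, 21 and 50 in Nr4a1-/- control, and 3, 11 and 69 in WT control. Per 10000 UMIs of the cell the medians were 115, 18.6, 40.3 and 9.95 in the same order. Of all Spp1 UMIs the chosen cells held 75.4% in Nr4a1-/- laser and 85.2% in WT laser, against 33.6% in Nr4a1-/- control and 20.8% in WT control. These shares follow in part from the rule, which asks for Spp1.

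Spp1 UMIs were seen in cells outside the class too. In B cells, which should lack Spp1, a Spp1 UMI was seen in 3.53% of cells in Nr4a1-/- laser and 16.4% in WT laser, and at least 2 UMIs in 0 of 85 and 3.36% of 268 (median depth 2314 and 4380 UMIs, against 7790 and 13747 in the Spp1 Gpnmb macrophages). A count of at least 2 Spp1 UMIs in a WT laser cell was therefore not particular to the chosen cells. The supporting genes were seen in other cells too. In B cells a Gpnmb UMI was seen in 1.18% and 2.61% but an Acp5 UMI in 22.4% and 28.7%, Syngr1 was seen in 68.2% and 78.9% of microglia, and Apoc2 in 43.8% and 73.9% of monocytes. Acp5 was seen in 31.2% of B cells in Nr4a1-/- control and 29.4% in WT control, where Spp1 Gpnmb macrophages were rare. Whether the UMIs of Spp1 and of the supporting genes in these other cells were free RNA or the cells' own was not tested. Just outside the rule, 9 Nr4a1-/- laser cells and 62 WT laser cells had 1 Spp1 UMI and were otherwise members, and just inside it 3 and 20 had 2. Of the 5 supporting genes, 28 and 104 otherwise fitting cells had 1 detected and 22 and 61 of the chosen cells had 2.

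The label of the class was checked against genes that did not choose it. Fabp5, a fatty acid carrier and the one listed marker outside the rule, was detected in 80.9% of Spp1 Gpnmb macrophages in Nr4a1-/- laser and 88.8% in WT laser, against 7.06% and 12.7% of B cells. It was also detected in 31.1% and 42.3% of the other macrophages and in 28.1% and 65.2% of the monocytes. Cd68, a lysosomal protein of macrophages, was detected in 95.5% and 99% of them, and Csf1r, the receptor for macrophage growth factors, in 70.8% and 95.4%. Lyz2, the lysozyme of myeloid cells, was detected in 100% and 99.5%. The cells thus expressed macrophage genes. The rule leaves out neither monocytes nor dendritic cells, and these genes alone do not set the chosen cells apart from those. An origin of the chosen cells from monocytes, which the study's name for such cells implies, is not measured by these counts.

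Markers of other cell types stood at mixed levels in the laser cells, with some lists no lower than in the other macrophages. Of 8 T cell genes the summed level was 28.4 CPM in Nr4a1-/- laser and 5.49 CPM in WT laser, against 12.9 and 12.5 CPM in the other macrophages. The 8 B cell genes summed to 28.4 and 66.6 CPM against 164 and 155 CPM, and the 15 photoreceptor and retina genes to 59.4 and 88.9 CPM against 180 and 190 CPM. The 12 pigment epithelium and melanocyte genes summed to 10.8 and 7.89 CPM against 12.9 and 18.5 CPM. The 7 natural killer cell genes summed to 47.3 and 58.4 CPM against 58.1 and 36.1 CPM, so they were higher in WT laser. The 8 dendritic cell genes summed to 128 and 121 CPM against 122 and 137 CPM, near the other macrophages. The 8 red blood cell and platelet genes summed to 613 and 649 CPM against 1039 and 974 CPM. The 8 neutrophil genes differed by genotype in both classes, at 101 and 440 CPM in the Spp1 Gpnmb macrophages and 112 and 421 CPM in the other macrophages, and the defining gene Ly6g had no UMI in the Spp1 Gpnmb macrophages of either. The part of these transcripts in the results was not tested. The lists were mixed in the few control cells too. B cell genes were lower than in the other macrophages, at 44.9 against 141.5 CPM in Nr4a1-/- control and 71.9 against 162.8 CPM in WT control. Red blood cell and platelet genes were also lower, at 179.5 against 1716 CPM and 160.4 against 1497 CPM. Other lists were higher. The 5 Nr4a1-/- control cells had pigment epithelium and melanocyte genes at 4352 CPM, all from 1 of the 5 cells, against 49.1 CPM in the other macrophages, and photoreceptor and retina genes at 471 CPM against 225 CPM. The 13 WT control cells had neutrophil genes at 1836 CPM against 1031 CPM and 7 natural killer cell genes at 1034 CPM against 116 CPM.

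To ask how these cells differ from their neighbours, they were set against the other macrophages of the same library. These were cells (350 of Nr4a1-/- laser, 681 of WT laser, 265 of Nr4a1-/- control, 438 of WT control) that expressed Csf1r and at least 3 of 8 macrophage genes and were not microglia, monocytes or dendritic cells. The Spp1 Gpnmb macrophages were deeper, at a median of 7790 and 13747 UMIs in Nr4a1-/- laser and WT laser, against 4652 and 9813 UMIs. A gene was called when both laser libraries showed a 2-fold or larger difference of the same sign, with at least 20 UMIs in the higher class of each. Of 6779 genes tested, 124 were called higher (1.83%) and 409 lower (6.03%). After thinning of all cells to 2000 UMIs, 2986 genes could be tested, 57 of the 124 higher and 233 of the 409 lower genes were still called, and all 124 and 403 of the 409 kept their sign. Since the cells were chosen by counts of the same cells, the contrast is a description. Of the calls, 8 higher and 6 lower genes were used to define the classes and are not results.

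Arg1 had the largest difference, ranked by the smaller of its 2 ratios. Arg1 (chr10:24915221-24927484, minus strand) encodes arginase 1, which splits arginine and marks repair-type macrophages in the mouse. It stood at 826 CPM in Spp1 Gpnmb macrophages of Nr4a1-/- laser against 5.59 CPM in the other macrophages (148-fold, 95% interval 79.9 to 310), and at 413 CPM in those of WT laser against 10.2 CPM (40.3-fold, 31.8 to 51.9). Arg1 was seen in 49.4% and 31.0% of the cells, so many had no Arg1 UMI. The 5 Nr4a1-/- control cells and the 13 WT control cells had no Arg1 UMI, which allows up to 67.3 and 16.6 CPM. Arg1 was low in the microglia of the laser libraries (46.9 and 29.1 CPM) and had no UMI in their monocytes. Genes of alternative activation and repair did not rise as a list. Of 13 tested outside the class rules, 1 was called higher and 5 lower (median log2 ratio -0.52, against -0.09 for all genes).

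Several genes of lipid transport and storage were higher. Of 28 lipid handling genes tested, 8 were called higher and 1 lower, with a median log2 ratio of 0.63 against -0.09 for all genes. Fabp5 (chr3:10012548-10016607, plus strand) stood at 4164 and 2823 CPM in Nr4a1-/- laser and WT laser, against 403 and 340 CPM in the other macrophages (10.3-fold and 8.30-fold), and at 1009 and 1609 CPM in the few cells of the controls. Its relatives Fabp4 (5.24-fold and 5.66-fold) and Fabp3 (4.03-fold and 5.02-fold), which also carry fatty acids, were higher. A single cell held 32.7% of the Fabp4 UMIs in Nr4a1-/- laser and 25.2% in WT laser. Plin2 stood at 1053 and 915 CPM against 364 and 430 CPM, and Nr1h3, the sterol sensor LXR alpha, was 3.32-fold and 3.85-fold higher. Apoc1, an apolipoprotein, was 5.56-fold and 4.0-fold higher, and 1 cell held 39.1% of its Nr4a1-/- laser UMIs. Slc27a1, a fatty acid transporter, was 3.91-fold and 3.76-fold higher and Hilpda, an inhibitor of lipid droplet breakdown, 3.68-fold and 2.01-fold. The most abundant apolipoprotein, Apoe, had 25550 and 29172 CPM against 14620 and 15071 CPM (1.75-fold and 1.94-fold) and was not called. The scavenger receptor Cd36 (0.728-fold and 0.815-fold) was not called. The 8 cholesterol synthesis genes tested had no call in either direction, with a median log2 ratio of -0.19.

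Lysosomal genes gave a mixed picture. Of 48 lysosomal hydrolase and membrane genes tested outside the class rules, 6 were called higher and 2 lower (median log2 ratio 0.39). Ctsd, whose promoter is printed above, stood at 4291 and 3618 CPM against 1429 and 969 CPM (3.00-fold and 3.73-fold), and Ctsb, cathepsin B, at 5210 and 5138 CPM against 2570 and 2473 CPM. Cd63, a membrane protein of late endosomes, was 3.33-fold and 2.84-fold higher. Ctsk, cathepsin K, the collagen-cutting protease of osteoclasts, was 7.25-fold and 5.38-fold higher at low levels of 28.4 and 16.8 CPM. Ctsf, cathepsin F, was lower (0.336-fold and 0.135-fold). Of 17 subunits and assembly factors of the vacuolar proton pump, none was called (median log2 ratio 0.47), with Atp6v0c at 1.49-fold and 1.33-fold. Atp6v0d2, which the rule used, is thus not accompanied by calls in the rest of the pump. Dmxl2, a protein known to help assemble that pump, was 6.17-fold and 6.54-fold higher at 162 and 139 CPM.

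**Figure D2:**
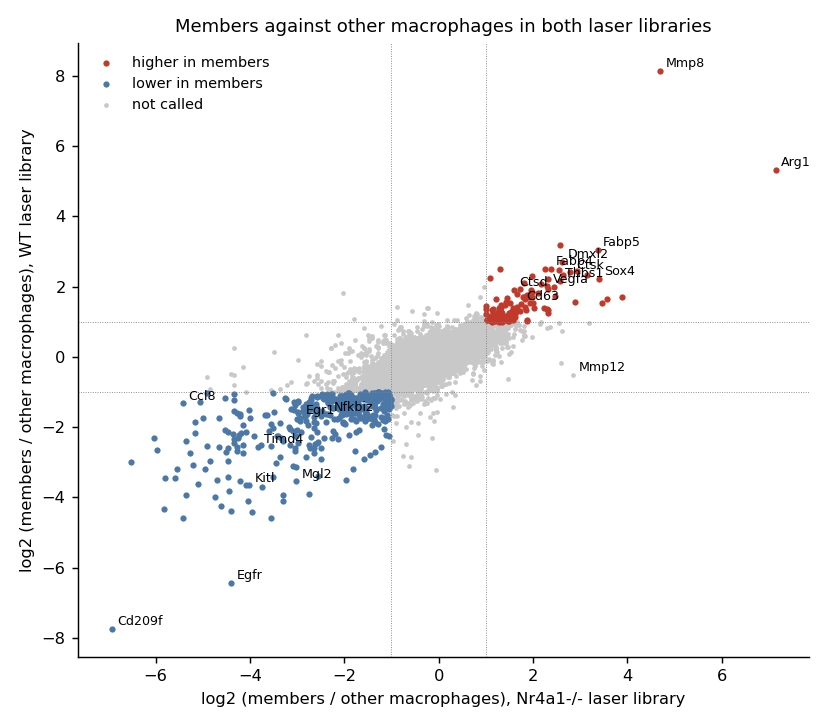
Log2 ratio of Spp1 Gpnmb macrophages (members) over other macrophages for each gene tested, in Nr4a1-/- laser (x axis) and WT laser (y axis), with a pseudocount of 0.5 and dotted lines at 2-fold. Genes used in the class rules are left out, so 116 higher genes (red) lie at the upper right, with Arg1 and Mmp8 farthest out, and 403 lower genes (blue) at the lower left. Mmp12 lies to the right of the line in Nr4a1-/- laser and below 0 in WT laser.

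Several sugar metabolism genes were higher as well. Of 17 glycolysis genes tested, 6 were called higher and none lower (median log2 ratio 1.04). Pgam1 stood at 532 and 303 CPM against 135 and 85.2 CPM (3.93-fold and 3.56-fold). Pkm (3.29-fold and 2.48-fold), Aldoa (3.08-fold and 2.37-fold) and Tpi1 (2.87-fold and 2.20-fold), all enzymes of the pathway, and Slc16a3, the lactate exporter (2.37-fold and 2.27-fold), were called. Gapdh (2.17-fold and 1.81-fold) and Ldha (2.28-fold and 1.87-fold) fell short of 2-fold in WT laser. Of 13 hypoxia response genes tested, 4 were called higher and none lower. Hif1a, the oxygen-regulated transcription factor, was at 1.55-fold and 1.40-fold and was not called. Of 75 oxidative phosphorylation genes, 72 had a mean log2 ratio above 0 but only Ndufs5 was called (2.15-fold and 2.03-fold), with a median of 0.54. Of 24 genes of the oxidative stress response, 4 were called higher, all of them thiol or glutathione enzymes or carriers: Txn1 (3.00-fold and 2.51-fold), Prdx1 (2.52-fold and 2.00-fold), Prdx6 (2.83-fold and 2.90-fold) and Mgst1 (3.00-fold and 2.60-fold). Fth1, the ferritin heavy chain that stores iron, stood at 20413 and 17283 CPM against 9161 and 7493 CPM.

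Secreted factors and proteases included vessel and matrix genes. Vegfa stood at 172 and 121 CPM in Nr4a1-/- laser and WT laser, against 34.6 and 30.0 CPM in the other macrophages (4.95-fold, 3.63 to 6.82, and 4.03-fold, 3.39 to 4.80), and was seen in 53.9% and 49.2% of the cells. In the controls it was at 0 UMIs in the 5 Nr4a1-/- cells and at 66.4 CPM in the 13 WT cells. Vegfa was also present in monocytes (53.7 and 90.2 CPM) and low in microglia (13.1 and 5.37 CPM). Thbs1, which encodes thrombospondin 1, a matrix protein known to inhibit vessel growth, was 5.94-fold and 4.46-fold higher at 999 and 797 CPM. It was as abundant in monocytes, at 919 and 1342 CPM. Mmp14, a membrane-bound collagenase, was 3.56-fold and 3.16-fold higher, and Mmp8, a neutrophil and macrophage collagenase, had 37 and 58 UMIs against 3 and 0 UMIs. Mmp8 was 29.8-fold (9.44 to 151) and at least 46.7-fold higher, the bound set by 3 counts over the other macrophages, but a single cell held 62.2% of its UMIs in Nr4a1-/- laser and 29.3% in WT laser. Mmp12, macrophage elastase, split by library at 7.25-fold in Nr4a1-/- laser and 0.703-fold in WT laser, with 63.2% of the first from 1 cell. F7, coagulation factor VII (4.83-fold and 5.72-fold), Gdf3, a growth factor of the TGF-beta family (3.54-fold and 3.28-fold), and Mif, a secreted cytokine (3.95-fold and 3.29-fold), were higher. Csf1 (1.72-fold and 2.31-fold) and Igf1 (0.634-fold and 1.19-fold) were not called.

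Several further genes stood out. Fbxo32, a ubiquitin ligase best known from wasting muscle, stood at 334 and 274 CPM against 56.4 and 49 CPM (5.91-fold and 5.58-fold). Slc6a8, the creatine transporter, was 7.91-fold and 5.46-fold higher, and Sephs2, which makes the selenium donor for selenoproteins, 6.37-fold and 5.01-fold. The transcription factor Sox4 was 10.9-fold and 4.71-fold higher at 60.8 and 26.1 CPM. Of 46 listed transcription factors of macrophages tested, 1 was called higher and 9 lower. Cxcl14, the 1 chemokine called higher, was 8.99-fold and 5.03-fold higher at 90.5 and 43.6 CPM. Il7r, the receptor for interleukin 7, stood at 404 and 267 CPM against 73.2 and 80.2 CPM. The damage-associated phagocyte genes, a list that overlaps the rule in kind, had 10 of 34 tested genes called higher and 1 lower outside the class rules. Among them Cd9, a tetraspanin, was 2.45-fold and 2.54-fold higher, whereas Trem2, the lipid receptor that phagocytes need for this state, was 1.73-fold and 2.19-fold and was not called. Of 18 osteoclast and cell fusion genes, 2 were called higher and none lower. Only 6 of the 18 had a mean log2 ratio above 0. The median of the list was -0.08, against -0.09 for all genes, so it was not higher as a list.

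**Figure D3:**
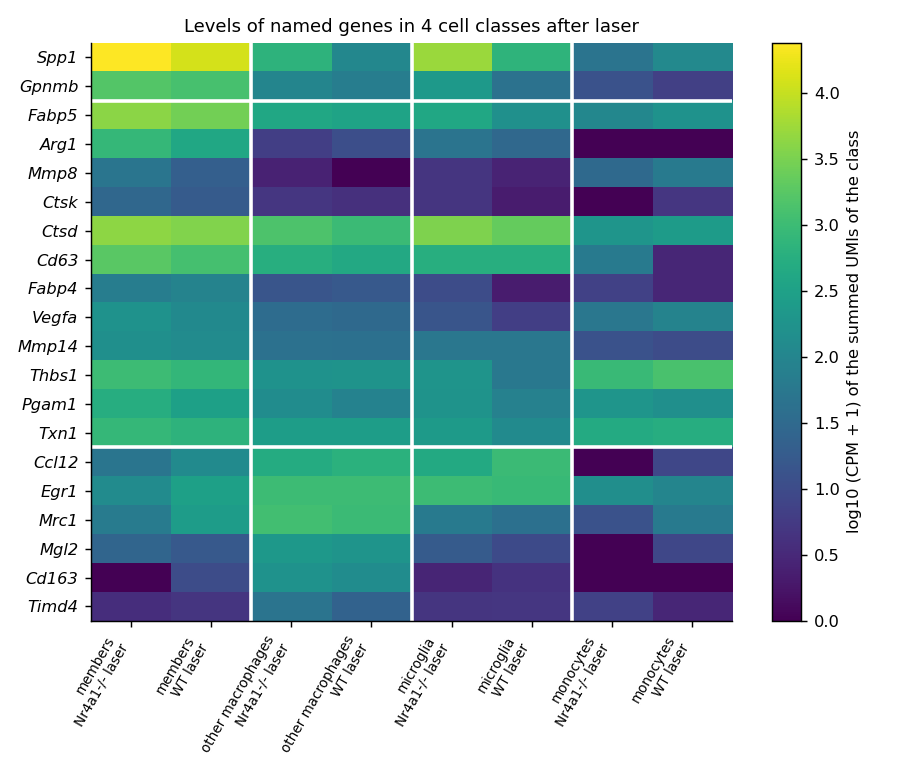
Colour map of log10 (CPM + 1) of 20 named genes (rows) in Spp1 Gpnmb macrophages (members), other macrophages, microglia and monocytes of Nr4a1-/- laser and WT laser (columns). White lines set apart the classes and, from top to bottom, genes of the rule, higher genes and lower genes. Fabp5 was at 4164 and 2823 CPM in the members against 403 and 340 CPM in other macrophages, and Ctsd was also bright in microglia.

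Many genes of tissue-resident macrophages were lower. Of 17 such genes tested outside the class rules, 9 were called lower and none higher (median log2 ratio -1.95). The summed level of these genes ran the other way, at 28088 and 32992 CPM against 21445 and 21606 CPM, and Apoe alone made up 25550 and 29172 CPM of the sum in the Spp1 Gpnmb macrophages. Cd209f, a lectin of resident macrophages, had no UMI in the Spp1 Gpnmb macrophages of either laser library, against 82.1 and 36.5 CPM in the other macrophages (at least 20.3-fold and 35.5-fold lower in the Spp1 Gpnmb macrophages). Fcna, a ficolin that binds sugars, was at 0.0143-fold and 0.107-fold, and Timd4, the phosphatidylserine receptor Tim-4, at 0.0569-fold and 0.163-fold. Gas6 (0.148-fold and 0.394-fold) and Pros1 (0.108-fold and 0.241-fold), which bridge dying cells to their receptors, were lower. Genes for the uptake of dying cells were not lower as a list. Of 19 tested outside the class rules, 3 were called higher and 3 lower (median log2 ratio -0.16). F13a1, the transglutaminase of clotting, was at 0.251-fold and 0.265-fold. Lyve1 was set to 0 by the rule, which selects against resident cells.

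Chemokines were divided between called and uncalled genes. Of 16 chemokines tested outside the class rules, 8 were called lower and Cxcl14 higher. Ccl7 stood at 252 and 390 CPM in Nr4a1-/- laser and WT laser, against 1018 and 1435 CPM (0.248-fold and 0.271-fold). Ccl12 stood at 48.6 and 124 CPM against 496 and 618 CPM. Ccl8 stood at 10.8 and 192 CPM against 489 and 482 CPM (0.0221-fold and 0.399-fold). Cxcl2, a neutrophil attractant, stood at 1370 and 2865 CPM against 2824 and 5567 CPM and was just short of the 2-fold limit in WT laser.

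Some early activation genes and a few inflammatory genes were lower too. Of 23 immediate-early and dissociation genes, 9 were called lower and none higher (median log2 ratio -1.22). Egr1, a factor induced within minutes of stimulation or of tissue handling, stood at 131 and 304 CPM against 1011 and 1008 CPM. Nfkbiz, a regulator of cytokine transcription, was at 0.197-fold and 0.322-fold. Of 16 inflammatory genes, 4 were called lower and 1, Arg1, higher. The lower ones included Tnf (0.455-fold and 0.388-fold), Il1a (0.315-fold and 0.36-fold) and Il10 (0.361-fold and 0.258-fold). Il1b, at 847 and 900 CPM against 883 and 1116 CPM, was not called. Of 11 MHC class II genes, 2 were called lower and none had a mean log2 ratio above 0 (median -0.98). H2-Eb1 was at 0.596-fold and 0.519-fold and was not called, whereas Ciita, the class II transactivator, was called (0.342-fold and 0.457-fold). Other low genes were Kitl, the ligand of the Kit receptor (0.0564-fold and 0.0776-fold), Bmp2 (0.0882-fold and 0.138-fold), Pdgfb (0.163-fold and 0.334-fold) and the iron oxidase Cp (0.0520-fold and 0.0443-fold).

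Set against other classes of the same laser libraries, 334 of 5199 genes (6.42%) were higher than in microglia and 368 of 3560 (10.3%) were higher than in monocytes. Of the 116 genes higher than in other macrophages and not used in the class rules, 74 were also higher than in microglia and 58 than in monocytes, and 37 were higher than in all 3. These included Arg1, Fabp5, Fabp4, Fabp3, Ctsk, Plin2, Pdpn, Dmxl2, Fbxo32, F7, Mmp14, Cxcl14, Il7r and Slc6a8. Ctsd was not among them. It stood at 3369 and 2210 CPM in microglia, the macrophages of the retina, and at 191 and 251 CPM in monocytes.

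The amount of Spp1 separated cells within the class. The laser cells were divided at 2 to 4, 5 to 49 and 50 or more Spp1 UMIs, giving 7, 27 and 55 cells in Nr4a1-/- laser and 49, 72 and 76 cells in WT laser. Since Spp1 counts move with cell depth and the genes belong to the same cells, the levels are a description. Fabp5 stood at 1483, 2782 and 4866 CPM in the rising classes of Nr4a1-/- laser and at 1321, 2042 and 4441 CPM in those of WT laser. Ctsd stood at 2911, 2341 and 5112 CPM and at 1380, 2333 and 6132 CPM. Arg1 stood at 120, 154 and 819 CPM in WT laser, where 12.2%, 16.7% and 56.6% of cells had a UMI, and at 1099, 761 and 831 CPM in Nr4a1-/- laser, where 14.3%, 40.7% and 58.2% had one. H2-Eb1, an MHC class II chain, ran the other way in WT laser at 4296, 2430 and 740 CPM, whereas Nr4a1-/- laser had 467, 3322 and 1773 CPM. The class was thus not uniform, and its WT laser cells at the low end had more class II RNA and less Arg1.

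**Figure D4:**
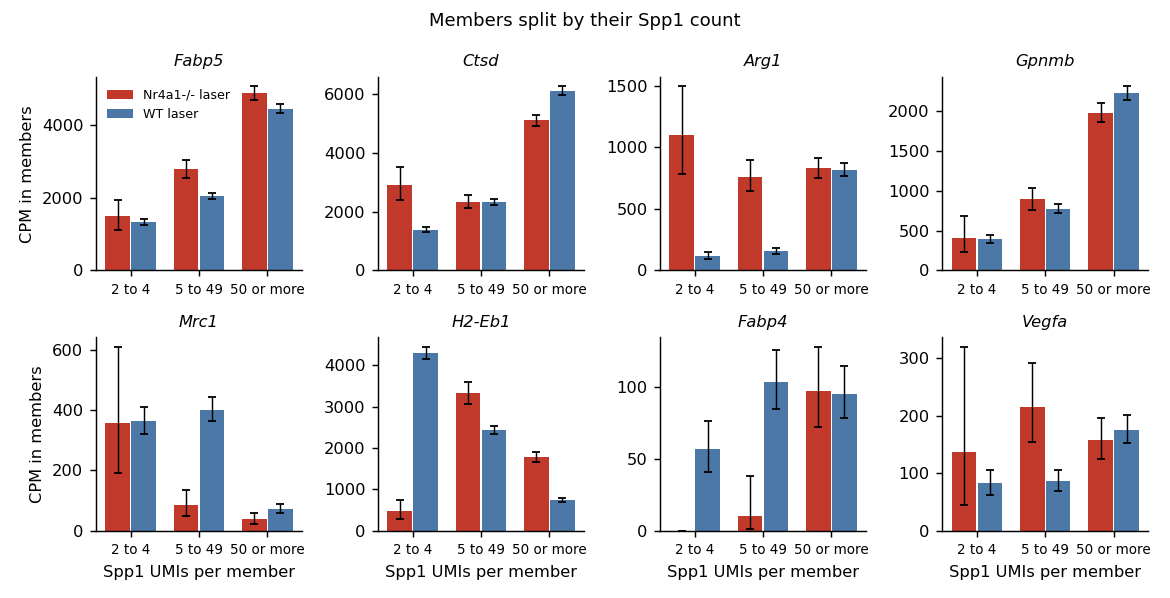
Level (CPM, bars, with 95% Poisson intervals for counting error) of 8 genes in cells with 2 to 4, 5 to 49 and 50 or more Spp1 UMIs, in Nr4a1-/- laser (red) and WT laser (blue). Fabp5 stood at 1321, 2042 and 4441 CPM over the 3 classes of WT laser, and H2-Eb1 at 4296, 2430 and 740 CPM.

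Antibody tags gave a readout of the same cells that the rule did not use. Each tag was taken as a share of all tag UMIs of the class and called at 1.5-fold in both laser libraries. Of 78 tags tested, 6 were higher (7.69%) and 10 lower (12.8%). CD11a, the alpha chain of the integrin LFA-1, had a median of 3 UMIs per cell in Nr4a1-/- laser and 5 in WT laser, against 0 and 2 in the other macrophages (3.11-fold and 2.43-fold by share). CD11c, an integrin of dendritic cells and activated macrophages, was 3.22-fold and 1.85-fold higher, with Itgax RNA at 3.5-fold and 1.53-fold. Podoplanin, a mucin-like protein that activates the platelet receptor CLEC-2, was 3.39-fold and 2.31-fold higher, and its gene Pdpn was called too (2.58-fold and 2.23-fold). CD274, the checkpoint ligand PD-L1, was 2.47-fold and 2.15-fold higher by tag, against 0.719-fold and 1.12-fold by Cd274 RNA. CD43, a sialomucin of leukocytes, was 2.30-fold and 1.79-fold higher by tag. The RNA of its gene Spn was at 0.468-fold, with 6 UMIs against 31, in Nr4a1-/- laser and at 1.25-fold in WT laser.

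Tag and RNA were called in opposite directions for CD86. The costimulatory protein was 2.59-fold and 1.60-fold higher by tag, with medians of 2 and 4 UMIs against 0 and 2, while Cd86 RNA was called lower (0.383-fold and 0.472-fold, at 285 and 320 CPM against 743 and 677 CPM). Without the cell with most CD86 UMIs the tag stood at 2.41-fold and 1.47-fold and lost its call. Of tags that mark resident macrophages, 3 were called lower, but few cells carried the differences. The rule asked for no Lyve1 UMI, which selects against resident cells, so these 3 tags are no independent check. CD163, the hemoglobin scavenger receptor, was at 0.0878-fold and 0.118-fold by share, while the median was 1 UMI in both classes of both libraries and 50.6% and 74.6% of the Spp1 Gpnmb macrophages had a UMI, against 57.1% and 72.1% of the other macrophages. Tim-4 was at 0.268-fold and 0.0987-fold, and 1 cell held 52.1% of its UMIs in the other macrophages of WT laser. FrB, folate receptor beta, was at 0.0437-fold and 0.164-fold, and 1 cell held 70.4% of its UMIs in the other macrophages of Nr4a1-/- laser. Without their top cells Tim-4 was at 0.158-fold and 0.158-fold and FrB at 0.12-fold and 0.236-fold. Folr2, the gene of FrB, was at 0.0984-fold and 0.290-fold. Of the 16 called tags, 11 kept the call without their top cell. The tag CD172a (0.0546-fold and 0.325-fold) did not, since single cells held most of its UMIs.

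The genotypes were compared by the ratio of Nr4a1-/- laser over WT laser within the Spp1 Gpnmb macrophages. A gene was called when it differed at least 2-fold with an exact conditional binomial 95% interval that left out 1 and at least 20 UMIs in the higher library. Of 7043 genes tested, 66 were higher (0.937%) and 298 lower (4.23%) in Nr4a1-/-. In the other macrophages, 75 of 9315 were higher (0.805%) and 175 lower (1.88%). Of the 66 and 298 genes, 59 and 288 could be tested in the other macrophages, where 6 and 33 were called in the same direction. These calls depended on depth and on single cells. After thinning, 1661 genes could be tested, and 34 were higher and 86 lower in the Spp1 Gpnmb macrophages of Nr4a1-/- laser, of which 4 and 26 were among the 66 and 298, and 56 of the 66 and 235 of the 298 kept their sign. Without the top cell of each gene 25 were higher and 429 lower, 25 and 286 of them among the 66 and 298, and the median log2 ratio over all genes was -0.17 against -0.09. These ratios compare 2 libraries and cannot separate genotype from library. Gm42418, a locus that overlaps ribosomal RNA sequence, stood at 27984 and 13104 CPM (2.14-fold) in these cells and was 2.49-fold in the other macrophages.

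Interferon-stimulated genes were lower in Nr4a1-/- laser cells of this class. Of 27 tested, 18 were called lower and none higher, with a median log2 ratio of -1.26, against -0.09 over all genes and -0.24 for the same list in the other macrophages. Their summed level was 2816 CPM in Nr4a1-/- laser and 4927 CPM in WT laser (0.572-fold, 0.546 to 0.599). In the other macrophages the sum was 0.875-fold. The ratio in the Spp1 Gpnmb macrophages was 0.570 with 50 or more Spp1 UMIs, 0.594 after thinning and 0.546 without the top cell of each gene. Examples chosen after their values were seen are Rsad2, the antiviral protein viperin (31.1 and 228 CPM, 0.136-fold), Isg15, a ubiquitin-like modifier (75.6 and 288 CPM, 0.263-fold), Irf7, the amplifier of interferon production (31.1 and 142 CPM, 0.219-fold) and Oasl1 (9.45 and 83.7 CPM, 0.113-fold). Against the other macrophages of the same library, 24 of 26 interferon-stimulated genes had a log2 ratio below 0 in Nr4a1-/- laser and 16 had one above 0 in WT laser.

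**Figure D5:**
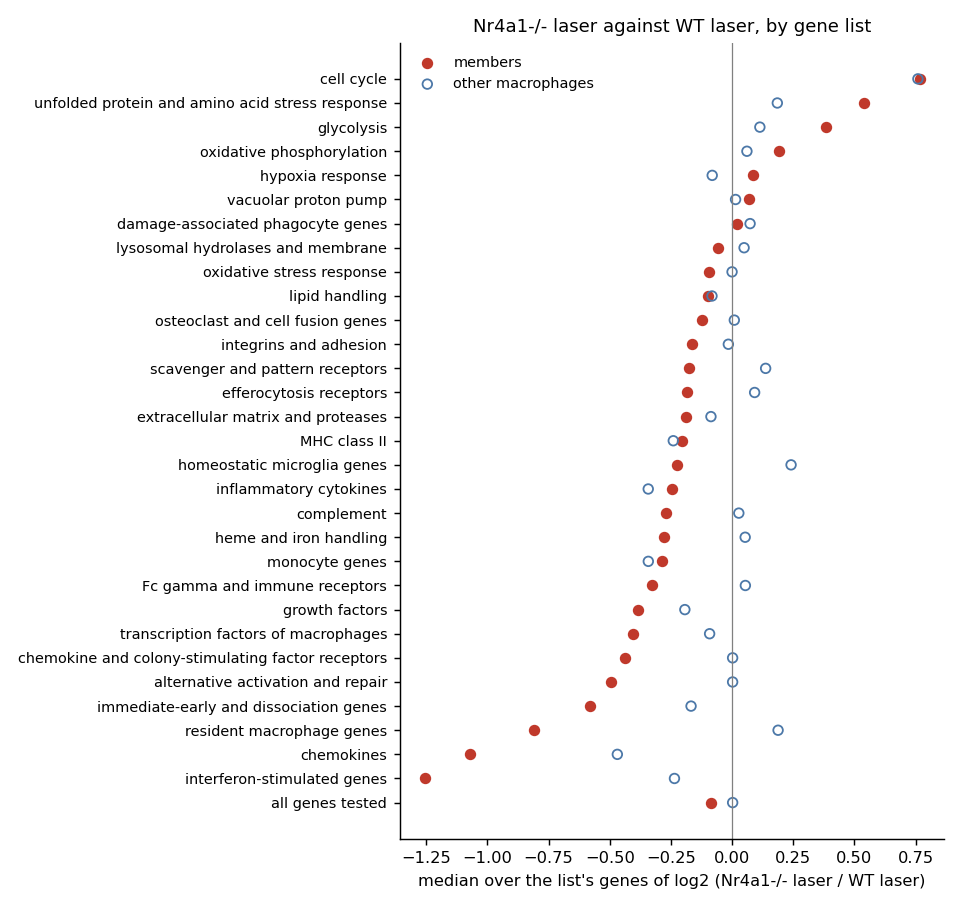
Median over each list's genes of the log2 ratio of Nr4a1-/- laser over WT laser (x axis), in Spp1 Gpnmb macrophages (members, filled points) and in other macrophages (open points), with all genes tested at the bottom. The interferon-stimulated genes lay at -1.26 in the members and -0.24 in the other macrophages, and no error is drawn because genes are not replicates.

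Chemokines showed no such stability. Their sum was 4543 CPM in Nr4a1-/- laser and 7516 CPM in WT laser (0.605-fold), but 1.07-fold among cells with 50 or more Spp1 UMIs and 1.03-fold after thinning. The sum of the MHC class II genes was 0.904-fold over all cells of the class and 2.22-fold among those with 50 or more Spp1 UMIs. Ccl8 (0.0561-fold) was called in this class, against 1.01-fold in the other macrophages. The resident genes Mrc1 and Cd163 were lower (66.2 and 260 CPM, 0 and 9.27 CPM), but both helped to define the classes. S100a9, a neutrophil protein, had 0 UMIs in Nr4a1-/- laser and 206 CPM in WT laser, of which 64.1% came from 1 cell, and was also lower in the other macrophages (0.0309-fold).

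Arg1 was 2.00-fold higher in Nr4a1-/- laser cells (1.81 to 2.21). Within cells of 50 or more Spp1 UMIs it stood at 831 CPM in Nr4a1-/- laser and 819 CPM in WT laser, and the levels in the cells with fewer Spp1 UMIs are those given above. Itgax was 2.38-fold higher (113 and 47.7 CPM), and its tag CD11c made up 0.688% and 0.464% of tag UMIs. Other genes with the largest ratios had few UMIs or rested on few cells. Npy, a neuropeptide, had 27 and 13 UMIs (8.17-fold, 4.07 to 17.3). Tnfrsf9, the costimulatory receptor 4-1BB, had 20 and 13 UMIs (6.05-fold), with 70.0% of the first from 1 cell. The division genes Birc5 (6.82-fold), Top2a (3.35-fold) and Mki67 (3.34-fold) were higher, as they were in the other macrophages (2.30-fold, 2.56-fold and 2.12-fold), and Mki67 was seen in 14.6% and 8.63% of the cells. Ifitm1, a membrane protein induced by interferon, went the other way from the list above at 192 and 29.2 CPM (6.57-fold), and was 3.15-fold in the other macrophages. Mmp12 was 2.84-fold higher in this class and 0.275-fold in the other macrophages.

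Promoter letters were counted as a description of the genes called against other macrophages. Of 116 higher genes outside the class rules 89 had a RefSeq promoter, as did 293 of 403 lower genes and 5407 of 6752 tested genes. Motifs were searched on both strands, and ACGTG, the core bound by hypoxia-inducible factors, lies within CACGTG, which lies within TCACGTG. The shortest, ACGTG, was held by 49.4% of the higher genes, 20.5% of the lower genes, 30.8% of all tested genes and 21.8% of all genes in the reference. TCACGTG was held by 11.2%, 4.10%, 8.66% and 4.29%, and CACGTG by 15.7%, 7.51%, 13.2% and 8.09%. TCATGTG was held by 6.74%, 4.10%, 2.89% and 4.31%, and TGACTCA by 8.99%, 7.17%, 4.90% and 5.95%. GAGGAAGT was held by 3.37%, 4.44%, 4.75% and 3.69%. A match describes letters only and does not show that a factor binds.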

How the data were processed

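RNA and ADT of CD45+ cells were counted in 4 pooled libraries. Per the labels and methods, the authors ran Cell Ranger 7.0.1 against mm10. The files they deposited hold whole UMI counts for 32285 genes and 87 tags in each called barcode, and these were used without change. The labels name the 3' v2 kit and the methods v3, and control is called both no laser and sham. For ADT samples the titles, which disagree with other fields, gave the group. Gene IDs matched GENCODE M21 for 32235 of 32285.

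Barcodes outside 200 to 5000 genes or above 15% mitochondrial UMIs were left out. UMIs were summed per class and library and scaled to CPM, and log2 ratios used a pseudocount of 0.5. The 7848548 to 38052948 UMIs per library set the precision. Shares have Clopper-Pearson and ratios exact conditional binomial 95% intervals, and 0 was read as up to 3 counts. The calling rule was also run on simulated counts. These varied by Poisson counting error alone, with no variation between cells and no choice of cells, so they test neither. The cells, classes and lists were chosen with earlier results of these data known. Genes named are those of the rule, the 15 most different per direction, up to 4 called and 2 uncalled genes per list, up to 10 per direction for genotype, 10 tags per direction and genes the study names for such cells. Exceptions are said to be chosen after their values were seen, among them Plin2, Slc27a1, Tpi1, Ctsb, Il7r and the interferon examples.

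Alternatives were other Spp1, gene-number, mitochondrial, UMI and fold limits, thinning to 2000 UMIs, other scalings, other reference classes, leaving out a library, and removal of the highest Scrublet scores (scanpy 1.11.5). Doublets were otherwise not removed. The software was matplotlib 3.10.9, pandas 2.3.3, scipy 1.17.1 and numpy 2.4.6 under Python 3.11.15.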

Additional observations from a re-analysis of the deposited data

Results flagged for a closer look

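A few genes and tags moved in opposite directions in the 2 laser libraries when Spp1 Gpnmb macrophages were set against other macrophages, and the difference between the libraries was not tested. Slfn4, an interferon-regulated gene, was at 0.201-fold in Nr4a1-/- laser (2 UMIs in these cells) and 3.53-fold in WT laser (92 UMIs). Ebag9 was at 0.25-fold (3 UMIs) and 2.09-fold (58 UMIs).

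The other 5 are antibody tags. Ly-6C was at 0.0237-fold in Nr4a1-/- laser and 38.8-fold in WT laser, where 1 cell held 56.5% of its UMIs, and medians per cell were 1 and 2 UMIs against 0 and 1. CD40 was at 0.0111-fold and 14.4-fold, with 88.1% of the UMIs of the other macrophages in Nr4a1-/- laser and 56.5% of those of the Spp1 Gpnmb macrophages in WT laser in 1 cell each. CD36 was at 0.0773-fold and 6.34-fold, with 65.1% and 51.3% in 1 cell of the same classes. CD169_Siglec-1 was at 2.78-fold and 0.423-fold, with 85.9% of the first from 1 cell. I-A_I-E, the MHC class II tag, was at 2.37-fold and 0.630-fold, and 1 cell held 26.2% of its UMIs in the Spp1 Gpnmb macrophages of Nr4a1-/- laser, where the medians were 24 UMIs against 19, and 27 against 91 in WT laser.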

How the results depend on the processing

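No paired analysis was possible because each group is 1 library. Of 5493 values of single genes, tags and lists under alternative settings, 4733 stayed within a margin around the value as reported, 749 moved and 11 reversed. The 4733 include values that could not move. Other UMI minimums and fold limits change only the calls and leave each ratio as it was. For genes and tags the margin was the log2 half-width of the counting interval, averaged over the laser libraries where each had its own. For lists it was the difference between the medians of the laser libraries, which is not counting error. The share in WT laser was 6.83% with 1 Spp1 UMI, 3.90% with 5 and 2.76% thinned. With 3 of the 5 genes the shares were 4.06% in Nr4a1-/- laser, 3.59% in WT laser and 0.159% in WT control. With 50 Spp1 UMIs they were 3.34%, 2.01%, 0.0495% and 0.0532% in Nr4a1-/- laser, WT laser, Nr4a1-/- control and WT control, and WT laser over WT control was 37.7. Nr4a1-/- laser over WT laser was 1.66 with 50 Spp1 UMIs and 2.03 thinned.

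Against other macrophages, higher and lower genes numbered 81 and 271 with a minimum of 50 UMIs, 216 and 783 with 5 UMIs, 459 and 890 at 1.5-fold, and 44 and 158 at 3-fold. Lower genes numbered 629 with 50 Spp1 UMIs and 659 with microglia in the comparison. From 1 laser library alone, 296 to 364 genes were higher and 991 to 1090 lower, and 13 to 14 tags higher and 16 to 28 lower. The 364 higher genes were those without WT laser and the 1090 lower genes those without Nr4a1-/- laser. All 124 higher genes kept their sign in every setting, as did the 409 lower genes except that 403 did after thinning. In some settings this was fixed in advance. A call asked for the same sign in both laser libraries, so leaving out a library could not change it. Other UMI minimums and fold limits left the ratios unchanged. Tags higher and lower numbered 3 and 5 at 2-fold and 10 and 6 per cell without scaling. Lower tags numbered 6 with 1 Spp1 UMI, 17 with 50 and 18 as a mean over cells.

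For genotype, higher and lower genes numbered 34 and 86 thinned, 320 and 556 at 1.5-fold, and 14 and 126 at 3-fold. Higher genes numbered 15 with a minimum of 50 UMIs, 257 with 5 UMIs and 25 without the top cell of each gene, where 429 were lower. Lower genes numbered 191 with 50 Spp1 UMIs, where Cxcl2 (log2 ratio 0.60), Pdgfb (0.39), Egr1 (0.36) and Ighm (0.13) reversed. Gzma reversed with no upper limit on genes (0.86), thinned (0.89), without the highest Scrublet scores (2.82) and without its top cell (0.017). Csf3r reversed thinned (0.14), and Hist1h1b with 3 of the 5 genes (-1.25). The tag CD172a reversed without its top cell (mean log2 ratio 0.30 against other macrophages). The cause of these changes was not tested, except that fewer or more genes could be tested at other UMI minimums.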

Other observations

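The few Spp1 Gpnmb macrophages of the controls are given as values with no comparison. The 5 cells of Nr4a1-/- control had Gpnmb at 6685 CPM, Apoe at 51415 CPM, Ctsd at 7762 CPM and Fabp5 at 1009 CPM, with a median of 3.73% mitochondrial UMIs. They also had pigment epithelium and melanocyte genes at 4352 CPM, from 1 of the 5 cells, and photoreceptor and retina genes at 471 CPM. The 13 cells of WT control had Gpnmb at 1023 CPM, Apoe at 25298 CPM, Ctsd at 6006 CPM and Fabp5 at 1609 CPM, with a median of 1.51%, neutrophil genes at 1836 CPM and natural killer cell genes at 1034 CPM. Both sets had no Arg1 UMI. Scrublet's highest scores included none of these 18 cells, and 5 of the 197 cells of WT laser.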
